A study of Mus musculus with 2 samples.

Results

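The cells described here were 209 noncycling Helios+ T cells that carried at least 2 UMIs (unique molecular identifiers, each standing for 1 captured transcript) of Tnfrsf9. They were found among 16179 barcodes of a thymus single-cell library. A barcode was kept when it held at least 1000 genes and at most 5% mitochondrial UMIs, which left 12147, and 10007 of these were assigned to 1 of 8 hashtag rows because that row held at least 80% of at least 10 hashtag UMIs. Of the 4249 barcodes assigned to rows 11, 13, 15 and 17, 800 held at least 2 UMIs of Ikzf2, at least 1 UMI of Cd3d, Cd3e and Cd3g together, and no UMI of Rag1, Rag2, Arpp21, Cd79a or Lyz2. Fewer than 5 UMIs of Mki67, Top2a, Birc5, Ube2c and Cdk1 together marked 658 of the 800 as noncycling. The 209 Tnfrsf9+ cells were compared with the other 449 noncycling cells, called Tnfrsf9-low here, and each hashtag row was used as 1 population of cells.

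The study took thymocytes of control mice (Ctrl) and of mice lacking Kidins220 in T cells (T-KO), both on a C57BL/6 background. T-KO mice carried loxP-flanked Kidins220 alleles and Cre driven by the proximal Lck promoter, which acts in thymocytes before the cells studied here arise. Cells of 4 thymi were pooled per genotype, stained with CD1d tetramer and sorted as stage 0 (TCRβ+, CD1dt+, CD24+, NK1.1-) or stage 3 (TCRβ+, CD1dt+, NK1.1+, CD24-, CD44+) invariant natural killer T (iNKT) cells, each sort being made in replicate. All 8 sorted populations were marked with hashtag antibodies and loaded as 1 droplet library whose transcripts were read from the 5′ end. The mice were untreated as far as the sources used here say, and their age is given only as a range over the whole study, from young to older adult mice matched for age and sex, not for this experiment. The sources used here do not pair hashtag rows 11 to 18 with a genotype or a stage, so no row was compared with another, and Ctrl and T-KO cells cannot be told apart. Ctrl and T-KO pools came from different mice, but whether the replicate sorts of a genotype came from separate animals is not given. The p-values below measure the spread between the 4 populations only.

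Tnfrsf9 encodes 4-1BB (CD137), a receptor of the TNF receptor family. T cells put it on their surface after their antigen receptor has signalled, and it recruits TRAF adaptors and activates NF-kB. Helios, encoded by Ikzf2, is a DNA-binding protein of the Ikaros family. In the thymus it is made by cells that have received strong antigen receptor signals, among them regulatory T cell precursors, cells bound for deletion and precursors of intraepithelial lymphocytes. The iNKT cell lineage is chosen at the double positive (DP) stage, and its earliest cells, stage 0, still carry the immature surface marker CD24.

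RefSeq gives Tnfrsf9 more than 1 transcription start, and the letters before these starts are shown because Tnfrsf9 is the gene that defined the cells. The following sequences are from the GRCm38.p6 build and read 5′ to 3′ on the strand of the gene. The first is the window of 250 bases before the upstream start, at chr4:150919905-150920154 on the plus strand, which lies over no RefSeq exon. The others are windows of 30 bases from the 250 bases before a downstream start of Tnfrsf9, at chr4:150927946-150927975 and chr4:150927969-150927998 on the plus strand, which lie over an exon of a predicted Tnfrsf9 transcript. The last is a window of 30 bases before a start of Nfkb2, a gene that was higher in the Tnfrsf9+ cells (below), at chr19:46304688-46304717 on the plus strand, over an exon of a predicted Nfkb2 transcript and an exon of 4833438C02Rik on the other strand. Capitals mark the first match on the plus strand to the NF-kB consensus or to the AP-1 motif TGANTCA. The NF-kB capitals also cover further matches, on either strand, that overlap the first. Both motifs were searched on both strands together with the NBRE motif AAAGGTCA that NR4A factors bind.
Tnfrsf9 upstream start: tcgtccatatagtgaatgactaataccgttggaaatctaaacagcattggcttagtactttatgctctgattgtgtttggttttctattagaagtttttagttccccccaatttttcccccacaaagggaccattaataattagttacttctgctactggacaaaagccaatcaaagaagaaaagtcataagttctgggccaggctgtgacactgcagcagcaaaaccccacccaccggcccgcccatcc
Tnfrsf9 downstream start, NF-kB match: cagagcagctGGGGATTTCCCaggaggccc
Tnfrsf9 downstream start, AP-1 match: gaggccctgctcagtTGAGTCAcaggtcct
Nfkb2, NF-kB match: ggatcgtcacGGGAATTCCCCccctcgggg

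The upstream window held no match to any of the motifs. Before the downstream start, the NF-kB match began 43 bases and the AP-1 match 15 bases before the start, and the NF-kB letters matched 3 times when overlapping positions and both strands were counted. The Nfkb2 match began 39 bases before its start. The NF-kB consensus was found in 3.90% of 32851 promoter windows of the same length and the AP-1 motif in 6.75%, and in 4.27% and 3.68% of the 6366 windows of genes that were tested. Among the 567 windows of genes higher in the Tnfrsf9+ cells the shares were 2.47% for NF-kB and 4.06% for AP-1, and among the 505 windows of genes lower in them 4.95% and 4.55%. A match shows that the letters are present and is not a measured binding site.

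Hashtag rows 11 to 18 held 99.9% of all hashtag UMIs. The stage 0 label was checked against its sort markers, without assigning any row by them. Over all assigned cells, Cd24a ran from 313 to 365 UMIs per 1000000 gene UMIs (CPM) in rows 11, 13, 15 and 17, and from 23.3 to 34.2 CPM in rows 12, 14, 16 and 18. Klrb1c, which encodes NK1.1, ran from 4.78 to 6.57 CPM in the first set of rows and from 328 to 444 CPM in the second. The iNKT label was checked in the same way. Zbtb16, which encodes the PLZF factor that defines the iNKT lineage, was at 20.8, 3.31, 2.78 and 0 CPM in rows 11, 13, 15 and 17 of the Tnfrsf9+ cells and at 14.8, 10.99, 7.53 and 2.43 CPM in the Tnfrsf9-low cells. Transcripts of Trav11 and its copies, the segment of the invariant receptor, made up 2 of 1077 TRAV UMIs (0.186%, exact 95% interval 0.0225 to 0.669%), against 3 UMIs (0.222%) in the Tnfrsf9-low cells. Over all assigned cells of rows 12, 14, 16 and 18, Zbtb16 was at 64.7 to 74.7 CPM, and the Trav11 share of those rows is not given here. Both defining iNKT transcripts were low in both classes, with Zbtb16 highest in row 11. The cells are called Tnfrsf9+ Helios+ cells below rather than iNKT cells.

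The Tnfrsf9+ cells were 31.8% of the noncycling Helios+ cells (209 of 658, exact 95% interval 28.2 to 35.5%, counting error only). The share was 27.1% in row 11 (26 cells), 31.1% in row 13 (88 cells), 37.6% in row 15 (53 cells) and 30.4% in row 17 (42 cells), which gives 31.6% ± 4.39 (SD, n = 4). All 4 populations held such cells, and the interval of each overlapped those of the others. When 1 Ikzf2 UMI sufficed for the gate, the share was 28.7% (221 of 769 cells), so some cells just outside the Helios gate were Tnfrsf9+ too. They were rare in the classes counted next, which do not cover every cell outside the gate. Of 827 cells of the same rows with at least 3 UMIs of Rag1, Rag2 and Arpp21, genes of DP thymocytes, 0 carried 2 Tnfrsf9 UMIs, which allows a share of up to 0.445%, although their median depth was 15107 UMIs. The share was 0.636% among 786 cells with at least 3 Cd79a UMIs, at a median of 6079.5 UMIs. It was 0.685% among 438 Cd3-carrying cells without any Ikzf2 UMI, whose median depth was 3168 UMIs, against 4319 UMIs in the noncycling gated cells. Among the 142 gated cells called cycling it was 40.1% (57 cells, 32.0 to 48.7%), at a median depth of 12065.5 UMIs.

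Tnfrsf9 itself and the depth of the cells are given as a description, since the rule used the first. The noncycling gated cells held 0 Tnfrsf9 UMIs in 330 cases, 1 in 119, 2 in 58, 3 in 43 and 4 or more in 108. The highest count was 18 and the median among the Tnfrsf9+ cells was 4. In rows 11, 13, 15 and 17 the summed level was 783, 656, 694 and 786 CPM in the Tnfrsf9+ cells and 40.7, 64.7, 65.2 and 70.5 CPM in the Tnfrsf9-low cells. The cells just inside the threshold, with 2 UMIs, had a median depth of 4938 UMIs, and those just outside, with 1 UMI, 4749. Over the whole classes the Tnfrsf9+ cells were deeper, with medians of 5674 UMIs and 2456 genes against 3863 UMIs and 1914 genes, and their mitochondrial share was 1.61% against 2.06%. A count threshold takes deeper cells more often, so fold changes were also taken within cells of 3000 to 8000 UMIs. At that depth the share was 31.4%.

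**Figure D1:**
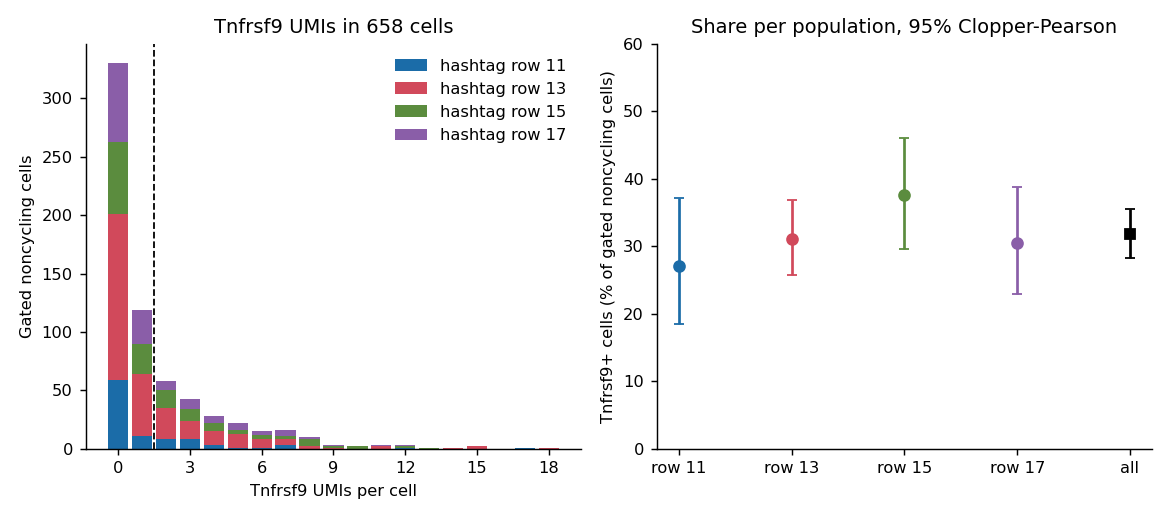
Left, number of noncycling Helios+ cells (y axis, stacked by hashtag row) by their Tnfrsf9 UMIs (x axis), where the dashed line marks the threshold and 330 of 658 cells hold no UMI. Right, share of Tnfrsf9+ cells per hashtag row and over all rows, with exact 95% intervals, from 27.1% in row 11 to 37.6% in row 15.

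Eno3, Nrgn and Xcl1 had been named as markers of these cells with results known and are described without a test. Eno3, the muscle form of the glycolytic enzyme enolase, was at 256, 437, 311 and 357 CPM in rows 11, 13, 15 and 17 of the Tnfrsf9+ cells, against 74.1, 239, 171 and 129 CPM in the Tnfrsf9-low cells. The lowest Tnfrsf9+ population was above the highest Tnfrsf9-low one. Nrgn encodes neurogranin, a small protein best known from neurons. It was at 1511, 1532, 1485 and 937 CPM against 1111, 1298, 1119 and 982 CPM, so that the order turned in row 17 and Nrgn did not separate the classes. Xcl1, a chemokine that attracts cross-presenting dendritic cells, was at 471, 414, 439 and 119 CPM against 92.6, 36.6, 15.1 and 24.3 CPM. All Tnfrsf9+ populations were above all Tnfrsf9-low ones.

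Xcl1 was held by a minority of the Tnfrsf9+ cells. It was found in 58 of 209 (27.8%, 21.8 to 34.3%), its median was 0, and 21 cells held 86.4% of its UMIs, with 115 UMIs in 1 cell. With every cell thinned to 2000 UMIs, which left out 3 Tnfrsf9+ and 36 Tnfrsf9-low cells, Xcl1 was found in 35 of 206 and 19 of 413 of them. Cells with Xcl1 held a median of 5 Tnfrsf9 UMIs and those without it 3. By Tnfrsf9 count, Xcl1 was at 38.1 CPM in cells with 0 UMIs, 35.9 CPM with 1, 87.5 CPM with 2, 654 CPM with 3 and 398 CPM with 4 or more. Eno3 ran through 143, 255, 335, 452 and 357 CPM over the same steps, and Nrgn through 1029, 1471, 1621, 1801 and 1179 CPM. None of these genes was highest in the cells with the most Tnfrsf9. The letters before the Xcl1 start, shown because this gene was concentrated in so few cells, lie over no RefSeq exon and held none of the motifs above (GRCm38.p6, chr1:164935523-164935772, minus strand).
Xcl1: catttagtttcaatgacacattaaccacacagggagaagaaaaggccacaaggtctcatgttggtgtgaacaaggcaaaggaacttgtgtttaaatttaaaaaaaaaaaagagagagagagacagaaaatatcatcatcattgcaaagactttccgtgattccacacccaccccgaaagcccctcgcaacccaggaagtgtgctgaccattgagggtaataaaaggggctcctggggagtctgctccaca

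Many genes of ribosome building, of polyamine, one-carbon and purine synthesis and of glycolysis were higher in the Tnfrsf9+ cells (16 of 19, 11 of 14 and 8 of 14 tested), together with the DNA helicase Mcm2, the lymphocyte receptor Crtam and the NF-kB subunits Relb and Nfkb2. The ribosome and synthesis lists were put together after the values had been seen, so their counts describe and do not test. Genes of thymic egress and maturation were lower, led by the transcription factor Klf2. UMIs were summed per population and class and compared by edgeR's quasi-likelihood test with the population as a block. Of 6165 genes tested, 571 (9.26%) were higher and 478 (7.75%) lower in the Tnfrsf9+ cells at an adjusted p under 0.05. These shares are the background for the counts of every gene list below. The median log2 fold change of the called genes was 0.61 upward and -0.71 downward, and 48 and 71 of them changed at least 2-fold. All 4 populations moved the same way for 451 and 385 of the called genes. DESeq2, run on the same sums with the same block, called 73 and 30. The edgeR counts fell to 238 and 211 without row 13, 346 and 278 without row 15 and 268 and 198 without row 17. They were 136 and 107 within 3000 to 8000 UMIs, where 881 of 889 called genes that could be tested kept their direction. In 415 genes (6.73%) the lowest Tnfrsf9+ population was above the highest Tnfrsf9-low one, and in 485 (7.87%) the reverse held. The called genes also held 34 ribosomal protein genes, all higher, and 6 mitochondrial genes, all lower.

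**Figure D2:**
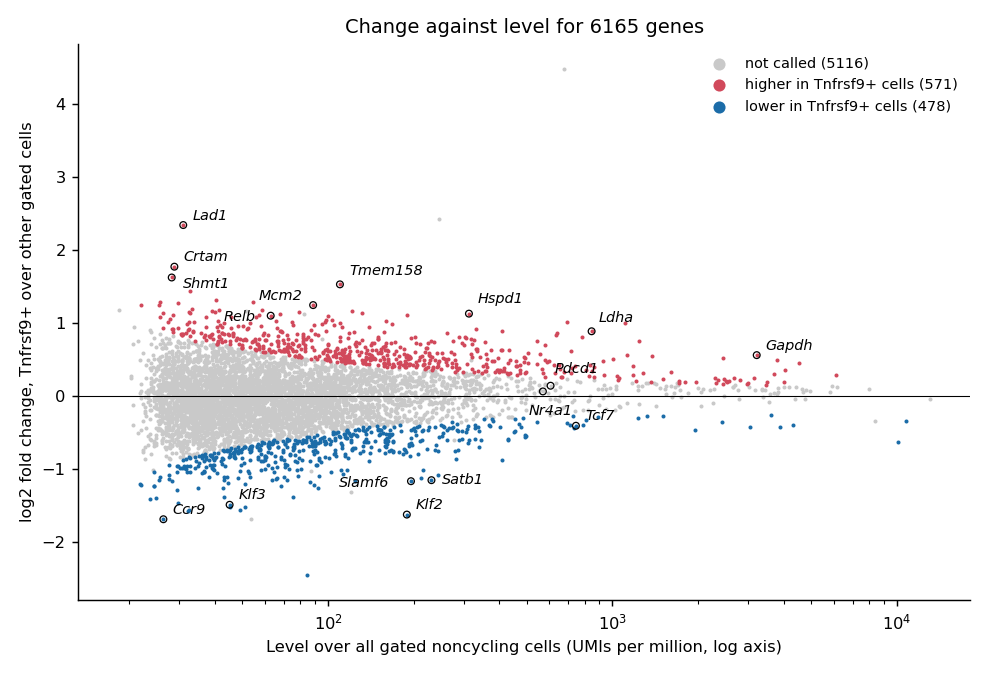
Log2 fold change of Tnfrsf9+ over Tnfrsf9-low cells (y axis) against the level of each of 6165 tested genes (x axis, log scale), with edgeR calls coloured (571 higher, 478 lower) and some genes of the text labelled. Klf2 lies at -1.62 and Ldha at 0.89, and the highest grey point is an immunoglobulin segment that was not called.

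Lad1, which encodes ladinin 1, an anchoring filament protein of basement membranes, had the largest rise among the 10 genes that the naming rule picked (given with the methods). It was at 180, 36.4, 61.1 and 31.8 CPM in the Tnfrsf9+ cells and at 33.3, 12.2, 2.51 and 7.29 CPM in the Tnfrsf9-low cells, a log2 fold change of 2.34 ± 0.32 (SE, edgeR adjusted p = 7.31e-11). The level in row 11 stood above the others in both classes, so the classes overlapped across rows although every row moved the same way. Crtam, a surface receptor of activated and cytotoxic lymphocytes, was at 62.4, 34.8, 55.5 and 63.5 CPM against 7.41, 20.8, 7.53 and 14.6 CPM (1.77 ± 0.33, adjusted p = 4.19e-06). The Crtam levels of the classes did not overlap. By Tnfrsf9 count (0, 1, 2, 3 and 4 or more UMIs) Lad1 ran through 5.33, 27.3, 9.05, 114 and 58.8 CPM. Crtam ran through 12.2, 20.5, 18.1, 60.8 and 57.5 CPM. For both genes the cells with 2 UMIs, just inside the threshold, did not stand above those with 1. Tmem158, a membrane protein described as induced by Ras signals, was at 250, 170, 128 and 206 CPM against 81.5, 73.3, 52.7 and 46.2 CPM (1.53 ± 0.17, adjusted p = 3.66e-16). It was also called by DESeq2 and within the narrow depth range (1.47). The remaining members of this set were Shmt1, Slc16a6, Ung, Nop16, Bysl, Crtap and Mcm2, with log2 fold changes from 1.25 to 1.62. Bysl lost its call without row 15 (adjusted p = 0.0543) and Crtap without row 13 (adjusted p = 0.0505).

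**Figure D3:**
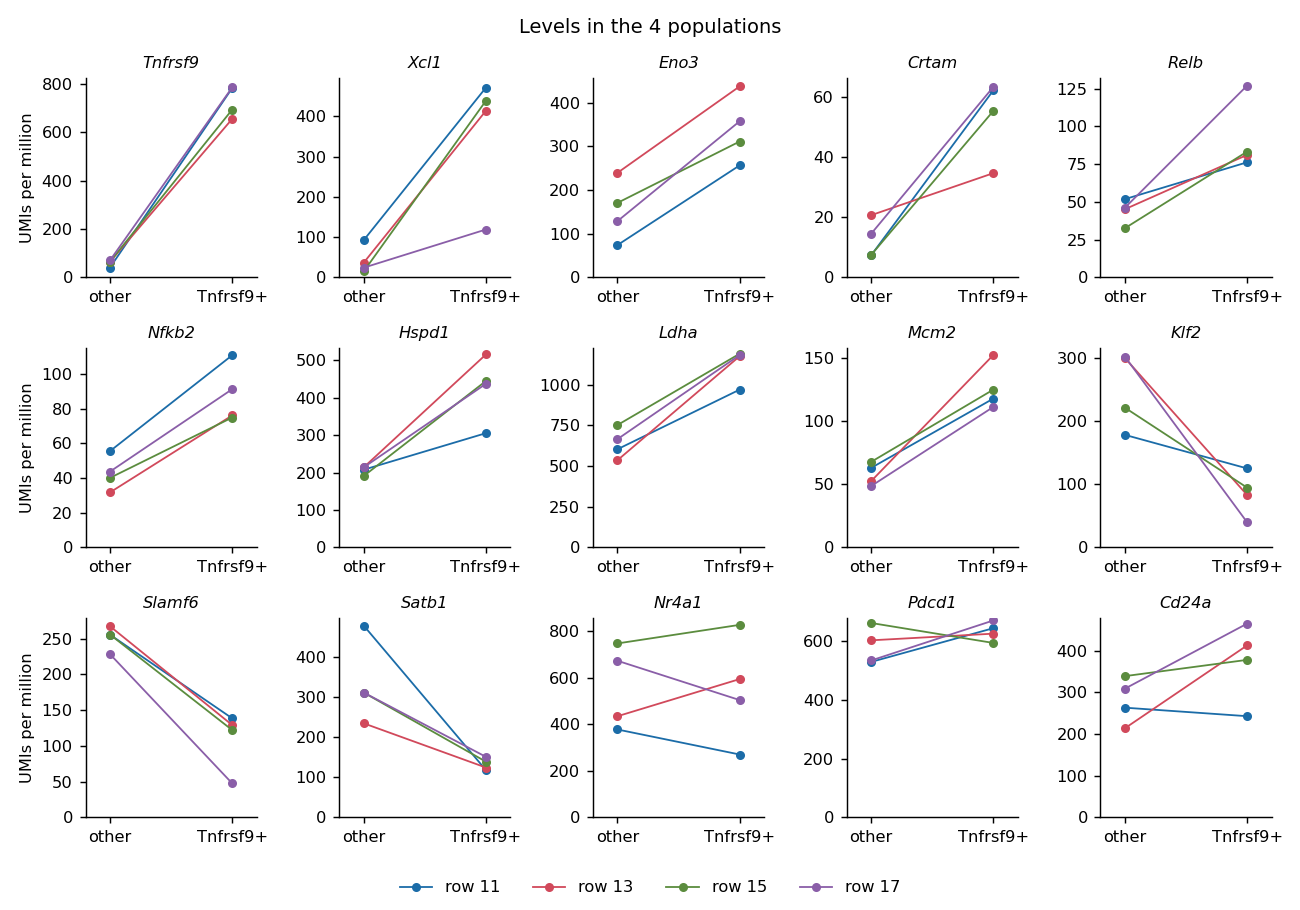
Level in CPM (y axis, from 0, scaled per gene) of 15 genes in the 4 populations, 1 point per hashtag row and class, with each row joined from the Tnfrsf9-low (other) to the Tnfrsf9+ cells. Relb, Nfkb2 and Crtam were higher and Klf2 and Slamf6 lower in every row, while Nr4a1 and Pdcd1 moved both ways.

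Genes that build ribosomes formed the most uniformly raised group. The list was put together after the values had been seen, so its counts describe and do not test. Of 19 tested members 16 were higher and 0 lower, with a median log2 fold change of 0.77, against -0.01 over all genes tested. Nhp2, a core protein of the particles that modify ribosomal RNA, was at 243, 253, 250 and 357 CPM against 148, 143, 118 and 109 CPM (1.11 ± 0.14, adjusted p = 1.71e-12). Ncl, the nucleolar protein nucleolin, was at 541, 820, 647 and 854 CPM against 474, 466, 434 and 464 CPM (0.70 ± 0.10, adjusted p = 4.75e-10). Neither gene overlapped between the classes. The gated cycling cells, summed over the rows, were at 262 CPM for Nhp2 and 818 CPM for Ncl. These levels lay within the range of the Tnfrsf9+ populations, so the rise was not particular to them. Fbl, the nucleolar methyltransferase fibrillarin, had a log2 fold change of 0.72, Nop58 of 0.73 and Npm1, the histone-binding nucleolar protein nucleophosmin, of 0.55, all called whichever row was left out. Nop58 lost its call with cells thinned to 2000 UMIs and with DESeq2 (adjusted p up to 0.356). Within 3000 to 8000 UMIs the median of the list was 0.72, and all 12 called members tested there kept their direction.

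Enzymes of polyamine, one-carbon and purine synthesis, which supply growing cells, were raised alongside. Of 14 tested members of this list, also assembled after the values were seen, 11 were higher and 0 lower (median 0.72, and 0.50 in the narrow depth range). Odc1, which catalyses the first step of polyamine synthesis, was at 166, 180, 203 and 218 CPM against 81.5, 84.2, 92.8 and 99.6 CPM (1.14 ± 0.16, adjusted p = 7.31e-11). Srm, spermidine synthase, was at 104, 209, 136 and 206 CPM against 88.9, 87.9, 70.2 and 70.5 CPM (1.17 ± 0.17, adjusted p = 3.48e-10). The Tnfrsf9+ and Tnfrsf9-low populations did not overlap for either enzyme. The gated cycling cells were within the Tnfrsf9+ range, at 192 CPM for Odc1 and 175 CPM for Srm. Shmt1, which moves one-carbon units from serine to folate, was at 41.6, 59.6, 27.8 and 43.7 CPM against 18.5, 15.9, 15.1 and 12.2 CPM (1.62 ± 0.34, adjusted p = 4.94e-05). Mthfd2 (1.15), Atic (1.04) and Impdh2 (0.79), of the mitochondrial folate and the purine pathways, were higher as well. Mthfd2 and Impdh2 lost their calls within 3000 to 8000 UMIs and with DESeq2.

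Part of the DNA replication genes were higher. Of 15 tested replication and S phase genes, a list assembled after the values were seen, 8 were higher and 0 lower (median 0.58). Mcm2, a subunit of the replicative helicase, was at 118, 152, 125 and 111 CPM against 63.0, 52.5, 67.7 and 48.6 CPM (1.25 ± 0.19, adjusted p = 1.06e-08). No population of the Tnfrsf9-low cells reached the lowest Tnfrsf9+ one. The gated cycling cells were at 145 CPM for Mcm2, within the Tnfrsf9+ range. Mcm5 (1.09), Mcm3 (0.95) and Mcm6 (0.77) of the same helicase were higher, and Ung, which removes uracil from DNA, had a log2 fold change of 1.32. Pcna, the sliding clamp of the polymerases, was not called (0.34, adjusted p = 0.164), nor was Rrm2, a subunit of ribonucleotide reductase (0.08, adjusted p = 0.90). In the narrow depth range the list's median was 0.13, where Mcm3 (0.13, adjusted p = 0.83), Mcm5 (0.63, adjusted p = 0.141) and Mcm6 (0.41, adjusted p = 0.0882) lost their calls and Mcm2 kept its own (1.04, adjusted p = 0.014). The 5 cycling genes, which the gate held below 5 UMIs in every cell of both classes, summed to 126 CPM in the Tnfrsf9+ and 156 CPM in the Tnfrsf9-low cells, and 51.2% and 52.8% of the cells held none of their UMIs. Of the mitotic genes outside the gate 3 could be tested, of which Stmn1, a tubulin-binding protein, was higher (0.45, adjusted p = 0.00108) and Hmgb2 was at 0.05. Stmn1 lost its call without row 13 (0.27, adjusted p = 0.265) and without row 17 (0.40, adjusted p = 0.0795).

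Glycolysis enzymes were higher in part. Of 14 tested, 8 were higher and 0 lower, with a median of 0.45 and of 0.35 in the narrow depth range. Ldha, which turns pyruvate into lactate, was at 970, 1176, 1191 and 1183 CPM in the Tnfrsf9+ cells and at 604, 536, 752 and 666 CPM in the Tnfrsf9-low cells (0.89 ± 0.08, adjusted p = 3.43e-23). Its levels did not overlap between the classes. By Tnfrsf9 count Ldha ran through 584, 699, 1011, 1026 and 1269 CPM in cells with 0, 1, 2, 3 and 4 or more UMIs. The gated cycling cells were at 1183 CPM for Ldha, within the range of the Tnfrsf9+ populations. Pgam1 (0.82), Tpi1 (0.74), Aldoa (0.63), Eno1 (0.59) and Gapdh (0.56), which act between fructose bisphosphate and pyruvate, were called and did not overlap either. Of these, only Gapdh was called in the narrow depth range (0.35, adjusted p = 0.0029), where Pgam1 was at 0.40 (adjusted p = 0.11). Pkm, pyruvate kinase, was called at 0.35 but stood at -0.01 (adjusted p = 0.965) in that range and lost its call without row 13 (adjusted p = 0.148). Ldhb, the partner of Ldha, was not called (-0.25, adjusted p = 0.218).

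Heat shock chaperones moved in both directions. Of 13 tested, 7 were higher and 2 lower (median 0.33). Hspd1, the mitochondrial chaperonin HSP60, was at 305, 515, 444 and 437 CPM against 207, 214, 191 and 214 CPM (1.13 ± 0.12, adjusted p = 7.11e-17). Its cofactor Hspe1 had a log2 fold change of 0.89 (adjusted p = 1.3e-12), and neither gene overlapped between the classes. Hspa8 (0.52) and Hsp90ab1 (0.50), constitutive cytosolic chaperones, were higher too. The lower members were Hspa1a and Hspa1b, the stress-induced forms of HSP70. Hspa1a was at 97.0, 111, 47.2 and 43.7 CPM against 152, 170, 90.3 and 94.8 CPM (-0.71 ± 0.18, adjusted p = 0.00176). Its call was lost within 3000 to 8000 UMIs, with cells thinned to 2000 UMIs, with DESeq2 and without the population block (adjusted p up to 0.309). Hspa1b (-0.46, adjusted p = 0.0251) lost its call without row 11 (adjusted p = 0.158), row 13 (0.213) or row 17 (0.207).

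Of 20 tested genes of the NF-kB pathway, into which 4-1BB signals, 3 were higher and 2 lower, and the median of 0.03 was close to that of all genes. Over all genes tested 9.26% were higher and 7.75% lower. The higher ones were Relb, Nfkb2 and Traf1. Relb was at 76.2, 81.1, 83.3 and 127 CPM in the Tnfrsf9+ cells and at 51.9, 45.2, 32.6 and 46.2 CPM in the Tnfrsf9-low cells (1.10 ± 0.22, adjusted p = 3.2e-05). Nfkb2, whose product p100 is processed to the partner of RelB, was at 111, 76.2, 75.0 and 91.3 CPM against 55.6, 31.8, 40.1 and 43.7 CPM (1.12 ± 0.23, adjusted p = 4.76e-05). Both genes were above the Tnfrsf9-low range in every row and were called within 3000 to 8000 UMIs (1.22 and 1.29). Traf1, an adaptor that 4-1BB binds, was at 41.6, 48.0, 36.1 and 63.5 CPM against 25.9, 15.9, 20.1 and 34.0 CPM (1.15 ± 0.29, adjusted p = 0.00172). Without row 13 it was at 0.85 (adjusted p = 0.176). DESeq2 called none of these genes, with adjusted p of 0.13 for Relb and Nfkb2 and 0.45 for Traf1. Map3k14, the kinase that starts p100 processing, held too few UMIs to be tested and was at 41.6, 14.9, 22.2 and 23.8 CPM against 14.8, 17.1, 20.1 and 24.3 CPM, higher in 2 rows and lower in 2.

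The lower genes of the pathway were Tnfaip3 and Ikbkb. Tnfaip3, the A20 protein that limits NF-kB signals, was lower (-0.65, adjusted p = 0.00604), as was the kinase gene Ikbkb (-0.60, adjusted p = 0.00569). Tnfaip3 lost its call without row 13 (adjusted p = 0.284), row 15 (0.0966) or row 17 (0.062), and Ikbkb without row 15 (0.0985) or row 17 (0.0715). Nfkbia, the inhibitor that classical NF-kB signals induce, was at 360, 333, 397 and 361 CPM against 352, 319, 324 and 352 CPM and was not called (0.15, adjusted p = 0.425). Of 8 tested TNF superfamily receptors and ligands other than Tnfrsf9, 0 were higher and Ltb, lymphotoxin beta, was lower (-0.48, adjusted p = 0.00238). Ltb lost its call without row 13 (adjusted p = 0.174) or row 17 (0.101). Tnfrsf18, which encodes GITR, was at 0.08 and Cd27, another costimulatory receptor, at -0.07.

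Among the listed transcripts that antigen receptor signals induce early, few differed between the classes. The list does not hold every such transcript, and those outside it are not covered here. Of 18 tested, 2 were higher and 1 lower (median 0.10), against 9.26% and 7.75% of all genes tested. Nr4a1, the orphan nuclear receptor Nur77 whose transcript follows receptor signals closely, was at 270, 594, 827 and 504 CPM in the Tnfrsf9+ cells and at 378, 435, 748 and 673 CPM in the Tnfrsf9-low cells (0.07 ± 0.10, adjusted p = 0.731). By Tnfrsf9 count it ran from 511 to 615 CPM. Egr1 (0.02), Egr2 (0.45, adjusted p = 0.135), Cd69 (-0.41, adjusted p = 0.0888) and Cd5 (-0.27, adjusted p = 0.0932) were not called either. Egr1 was lower (-0.54, adjusted p = 0.00442) when cells with fewer than 2 cycling UMIs were compared. Cd69 was called lower in 6 alternatives and Cd5 in 5, among them those that took at least 3 Tnfrsf9 UMIs for members (-0.67, adjusted p = 0.00709, and -0.33, adjusted p = 0.039). The called members were Myc (0.40), the calcium channel gene Orai1 (0.62) and Tox, a factor of selected thymocytes (-0.31). Each of these 3 lost its call without row 13 (adjusted p = 0.462, 0.349 and 0.203), row 15 (0.0506, 0.0613 and 0.0751) or row 17 (0.0958, 0.141 and 0.344).

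Of 12 tested calcium signal genes 2 were higher, Orai1 among them, and 1 was lower (median -0.02), against 9.26% and 7.75% of all genes tested. The lower one, the kinase gene Camk4, which calcium signals activate, was at 173, 119, 122 and 139 CPM against 226, 209, 203 and 275 CPM (-0.72 ± 0.15, adjusted p = 4.72e-05). Its levels did not overlap between the classes, but DESeq2 did not call it (adjusted p = 0.0997).

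The SLAM receptor gene Slamf6 and the adaptor gene Sh2d1a were lower in the Tnfrsf9+ cells. Slamf6, a self-binding receptor that thymocytes use during iNKT selection, was at 139, 129, 122 and 47.6 CPM against 256, 267, 256 and 228 CPM (-1.16 ± 0.15, adjusted p = 5.84e-12). It fell in steps with the Tnfrsf9 count, through 278, 203, 163, 122 and 88.8 CPM. Sh2d1a, which encodes the adaptor SAP that binds SLAM receptors, was at 152, 101, 108 and 107 CPM against 267, 166, 193 and 206 CPM (-0.77 ± 0.15, adjusted p = 2.67e-05). Both were below the Tnfrsf9-low range in every row and were called within 3000 to 8000 UMIs (-1.56 and -0.94). Sh2d1a lost its call with cells thinned to 2000 UMIs and with DESeq2 (adjusted p up to 0.0934). Of 11 tested checkpoint and costimulatory receptors, Slamf6 among them, 1 was higher and 3 lower, against 9.26% and 7.75% of all genes tested. Pdcd1, which encodes PD-1, was at 645, 626, 594 and 671 CPM against 530, 603, 662 and 535 CPM (0.14 ± 0.10, adjusted p = 0.344), so that the classes overlapped. Cd160, a receptor of cytotoxic and intraepithelial lymphocytes, was higher (0.56, adjusted p = 0.000636) but not without row 15 (0.53, adjusted p = 0.0621) or row 17 (0.49, 0.0864). Nt5e, which encodes CD73, and Izumo1r, folate receptor 4, were the other lower members (-0.96, adjusted p = 0.0207, and -0.70, adjusted p = 0.0418). Both lost their calls without row 13 (0.204 and 0.396), row 15 (0.134 and 0.0541) or row 17 (0.108 and 0.45).

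**Figure D4:**
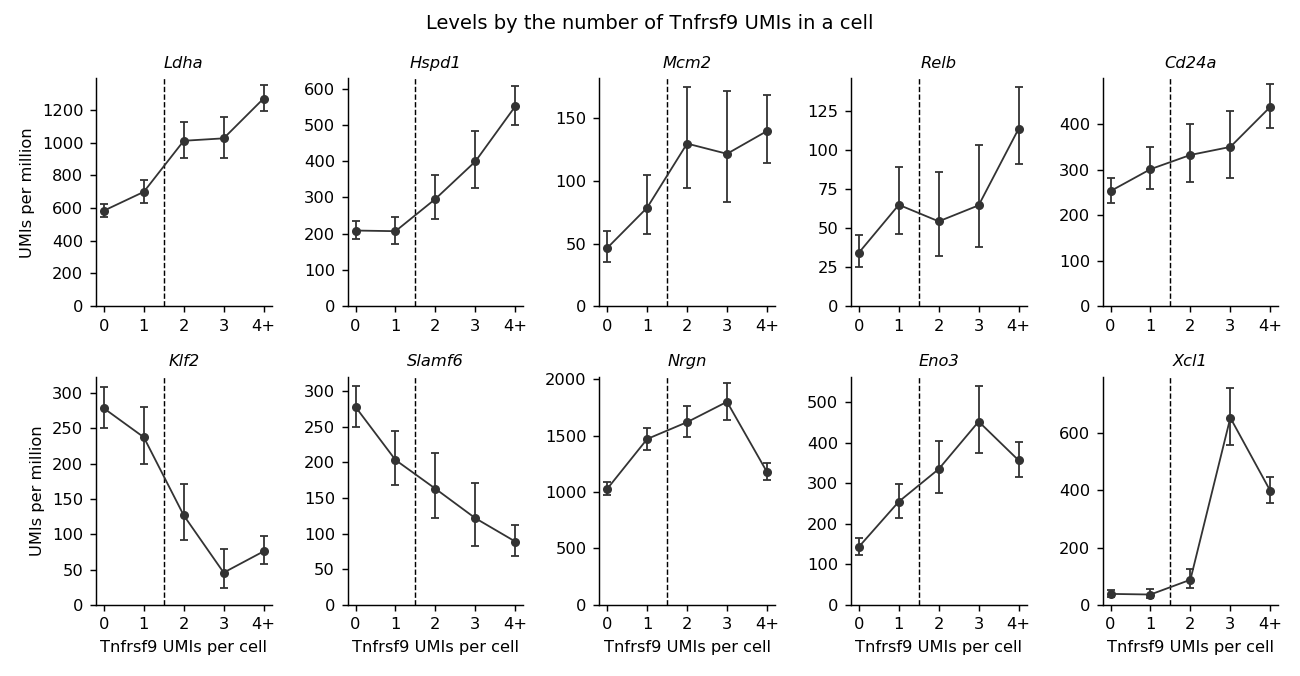
Level in CPM (y axis, from 0, scaled per gene) of 10 genes in noncycling Helios+ cells grouped by Tnfrsf9 UMIs (x axis), with exact 95% Poisson intervals that cover counting error only and the threshold as a dashed line. Ldha reached its highest level (1269 CPM) and Slamf6 its lowest (88.8 CPM) in the cells with 4 or more UMIs, while Xcl1 was highest in those with 3 (654 CPM).

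Thymic egress and maturation genes were the most uniformly lowered group. Of 16 tested, 0 were higher and 12 lower, with a median of -0.81, and all 11 called members tested within 3000 to 8000 UMIs kept their direction (median -0.59). DESeq2 called 2 of the 16, Klf2 and Gimap6, and did not call Klf3, Il7r, Ly6c2 or S1pr1. Klf2, the factor that drives the egress receptors of mature thymocytes, was at 125, 82.8, 94.4 and 39.7 CPM against 178, 299, 221 and 301 CPM (-1.62 ± 0.16, adjusted p = 4.54e-20). Its levels did not overlap, and it was called by DESeq2 and at both matched depths. By Tnfrsf9 count it ran through 279, 238, 127, 45.6 and 75.7 CPM. Klf3, a repressor of the same family, was at 20.8, 9.94, 38.9 and 23.8 CPM against 81.5, 61.0, 62.7 and 51.0 CPM (-1.49 ± 0.29, adjusted p = 1.71e-05). Il7r, the interleukin 7 receptor of maturing thymocytes, was at 69.3, 31.5, 27.8 and 15.9 CPM against 96.3, 63.5, 70.2 and 53.5 CPM (-1.03 ± 0.26, adjusted p = 0.0013). Each row moved down for Klf3 and Il7r, and the Il7r levels of the classes overlapped. Gimap6, a GTPase of mature lymphocytes, had a log2 fold change of -0.74 and Ly6c2, a surface antigen of mature cells, of -1.03, both without overlap. S1pr1, the sphingosine phosphate receptor that lets thymocytes leave, was at 27.7, 9.94, 11.1 and 15.9 CPM against 11.1, 41.5, 30.1 and 31.6 CPM (-1.23 ± 0.40, adjusted p = 0.0197). Row 11 went the other way for S1pr1, and its call was lost without row 17 (-1.30, adjusted p = 0.109).

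The genes with the largest falls by the naming rule were Ccr9, Klf2, Smad5, Scml4, Pde2a, Klf3, Snx33, Ankrd50, Rassf2 and Arhgap4, with log2 fold changes from -1.69 to -1.38. Ccr9, a chemokine receptor of thymocytes and gut-homing cells, was at 55.5, 4.97, 2.78 and 7.94 CPM against 92.6, 17.1, 30.1 and 51.0 CPM (-1.69 ± 0.40, adjusted p = 0.000612). The level in row 11 was the highest of the rows in both classes, and the call was lost without row 17 (-1.46, adjusted p = 0.0626). Arhgap4, a GTPase-activating protein of blood cells, was at 41.6, 39.7, 30.5 and 39.7 CPM against 152, 87.9, 82.8 and 119 CPM (-1.38 ± 0.23, adjusted p = 1.83e-07). Pde2a, a phosphodiesterase that splits cyclic nucleotides, was at 20.8, 16.6, 27.8 and 19.9 CPM against 74.1, 65.9, 42.6 and 68.0 CPM (-1.51 ± 0.29, adjusted p = 1.46e-05). Neither overlapped between the classes. Ankrd50 lost its call without row 15 (adjusted p = 0.0656) or row 17 (0.0789).

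Cytokine receptors and homing genes were lower where they changed. Of 10 tested cytokine and chemokine receptors 0 were higher and 5 lower (median -0.37, and -0.06 in the narrow depth range), and 4 of the 10 had a positive fold change. The lower ones were Ccr9 and Il7r, described above, and Ifngr1 (-0.62), Il6st (-0.48) and Il2rb (-0.34), of the interferon gamma, interleukin 6 and interleukin 2 or 15 receptors. Their adjusted p rose to 0.382, 0.494 and 0.272 without row 13 and to 0.0531, 0.216 and 0.335 without row 17, and Il6st and Il2rb also lost their calls without row 15 (0.0628 and 0.0833). Of 4 tested cytokines 2 were lower, Ltb and Il16, a chemoattractant of CD4+ cells (-0.49, adjusted p = 0.0299). Il16 lost its call without row 13 (0.182), row 15 (0.126) or row 17 (0.346). Of 9 tested genes of intraepithelial lymphocyte precursors 0 were higher and 6 lower (median -0.77, and -0.13 in the narrow depth range). Besides Ccr9, S1pr1 and Il2rb these were the integrin chains Itga4 (-0.77) and Itgb7 (-0.80) and Runx3, a factor of cytotoxic lineages (-0.83). Itga4 was at 83.2, 121, 158 and 71.5 CPM against 92.6, 250, 160 and 241 CPM, and rows 13 and 17 carried the difference. Itga4, Itgb7 and Runx3 lost their calls without row 13 (adjusted p = 0.0866, 0.145 and 0.491) or row 17 (0.0699, 0.162 and 0.194).

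Of 15 tested immature thymocyte genes 1 was higher and 4 lower, against 9.26% and 7.75% of all genes tested. The fold change was negative for 13 of the 15 (median -0.19). Cd24a, which encodes the sort marker CD24, was at 243, 412, 378 and 464 CPM against 263, 214, 339 and 309 CPM (0.53 ± 0.12, adjusted p = 0.000332). It rose with the Tnfrsf9 count through 253, 301, 332, 350 and 437 CPM, but row 11 went the other way and the call was lost without row 13 (0.29, adjusted p = 0.272) or row 17 (0.49, adjusted p = 0.0855). Satb1, a chromatin organiser of thymocytes, was at 118, 124, 139 and 151 CPM against 478, 234, 311 and 311 CPM (-1.15 ± 0.14, adjusted p = 3.05e-13). Themis, which tunes antigen receptor signals during selection, was at 62.4, 33.1, 30.5 and 39.7 CPM against 126, 68.4, 90.3 and 114 CPM (-1.23 ± 0.23, adjusted p = 9.26e-06). Both were called in the narrow depth range (-0.65 and -1.19), and the classes overlapped for neither. Tcf7, an early T lineage factor, was lower at -0.41 (adjusted p = 0.000178), and Sox4, a factor of immature thymocytes, was not called (-0.12, adjusted p = 0.333). DESeq2 called Satb1 but neither Themis nor Tcf7 (adjusted p = 0.064 and 0.055).

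Few of the tested survival genes were called. Of 15 tested apoptosis and survival genes 0 were higher and 2 lower (median -0.09), against 9.26% and 7.75% of all genes tested. The lower ones were Bcl2 (-0.48, adjusted p = 0.0112) and Mcl1 (-0.35, adjusted p = 0.042), which both protect from cell death. Both lost their calls without row 13 (0.238 and 0.117), row 15 (0.0739 and 0.283) or row 17 (0.0695 and 0.271). Bcl2a1b and Bcl2a1d of the same list held few UMIs and were not called, which does not show that they were unchanged. Both were highest in cells with 4 or more Tnfrsf9 UMIs. Over 0, 1, 2, 3 and 4 or more UMIs, Bcl2a1b ran through 13.7, 6.83, 15.1, 15.2 and 48.3 CPM. Bcl2a1d ran through 9.13, 5.13, 6.04, 3.80 and 39.2 CPM. Bcl2l11, which encodes the death-promoting BIM, was at 146, 119, 106 and 163 CPM against 152, 72.0, 100 and 117 CPM and was not called (0.41, adjusted p = 0.0717), but it was within 3000 to 8000 UMIs (0.73, adjusted p = 0.028).

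**Figure D5:**
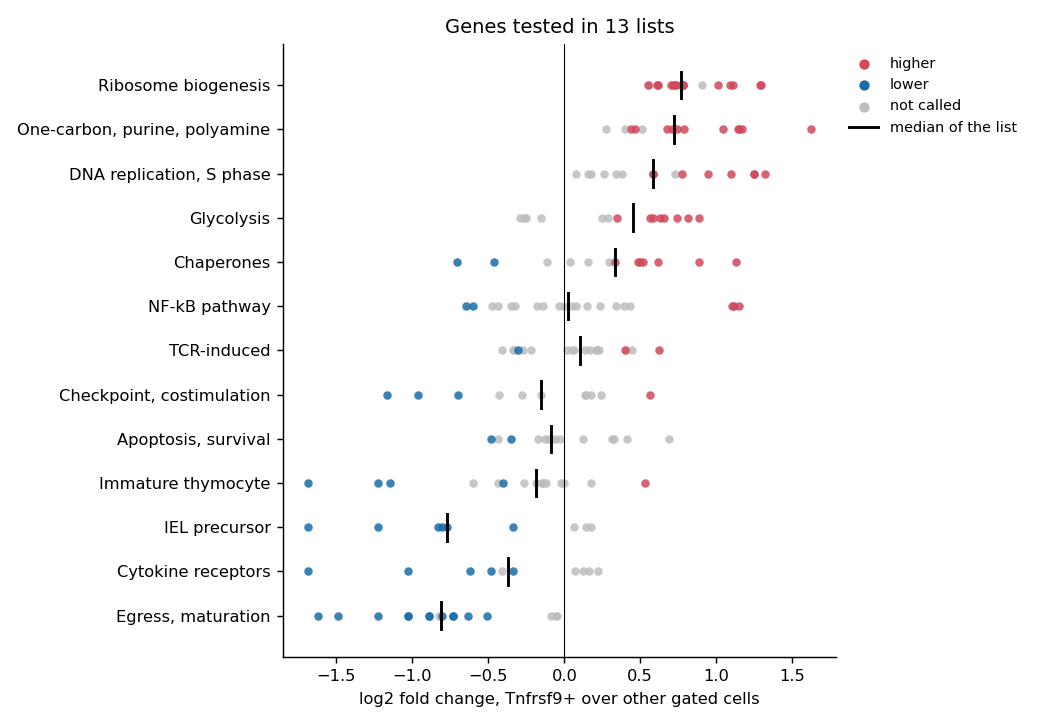
Log2 fold change (x axis) of every tested gene, 1 point each, in 13 gene lists (y axis), Tnfrsf9+ over Tnfrsf9-low cells, with the list's median as a bar and edgeR calls coloured. Ribosome biogenesis genes lie highest (median 0.77) and egress and maturation genes lowest (median -0.81). The lists of ribosome biogenesis, of one-carbon, purine and polyamine synthesis and of DNA replication were put together after the values had been seen.

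Where lineage genes of other T cell kinds were called, they were mostly lower. Of 9 tested iNKT lineage genes 0 were higher and 3 lower (median -0.34, and -0.13 in the narrow depth range), namely Slamf6, Sh2d1a and Il2rb. Il2rb was not called in that range (-0.13, adjusted p = 0.726). Of 4 tested gamma-delta T cell genes Trdc, the delta chain constant gene, was higher and Id3 and Id2, inhibitors of E proteins, were lower. Over all genes tested 9.26% were higher and 7.75% lower. Trdc was at 62.4, 44.7, 38.9 and 47.6 CPM against 14.8, 29.3, 30.1 and 9.72 CPM (1.01 ± 0.30, adjusted p = 0.0072), without overlap, and lost its call without row 17 (0.80, adjusted p = 0.135). Id3 was at -0.40 (adjusted p = 0.000161; 0.0596 without row 13) and Id2 at -0.61 (adjusted p = 0.0379; 0.0978, 0.103 and 0.426 without rows 13, 15 and 17). Of 7 tested genes of a group that marks another set of the Helios+ cells (Cd7, Lgals3, Kit and others) 4 were lower. Lgals3, galectin 3, was at 20.8, 26.5, 100 and 47.6 CPM against 100, 114, 110 and 122 CPM (-1.18 ± 0.21, adjusted p = 1.55e-06) and Samhd1, which degrades nucleotides, at -0.95 (adjusted p = 0.000659). Both lost their calls without row 17 (0.0796 and 0.0726). The others were S100a6 (-0.65, adjusted p = 0.0348) and S100a11 (-0.42, adjusted p = 0.0136), calcium-binding proteins. S100a6 lost its call without row 11 (0.211), row 15 (0.16) or row 17 (0.552), and S100a11 without row 13 (0.303), row 15 (0.0538) or row 17 (0.115). Cd7 (-0.60, adjusted p = 0.597) and Kit (-0.57, adjusted p = 0.0635) were not called.

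Antigen receptor segments, named here after their values had been seen, were lower where they were called. Trbv17 was at 0, 24.8, 30.5 and 15.9 CPM in the Tnfrsf9+ cells and at 207, 180, 62.7 and 43.7 CPM in the Tnfrsf9-low cells (-2.45, adjusted p = 6.785e-18; 0.177 with DESeq2), and was below the Tnfrsf9-low range in every row. It made up 30 TRBV UMIs (1.30%) against 246 (5.69%), and 1 cell held 36.7% of its UMIs in the Tnfrsf9+ cells. Trbv29 (-1.56), Trbv19 (-1.16) and Trbv3 (-0.75) were lower too, and no TRAV segment was called in either direction. No TRBV segment was called higher. Some made up more of the TRBV UMIs in the Tnfrsf9+ cells, among them Trbv26 (4.41% against 1.53%), Trbv31 (6.40% against 3.86%) and Trbv1 (8.70% against 5.85%). Trbv19 lost its call within 3000 to 8000 UMIs (-0.95, adjusted p = 0.226) and, when 1 Tnfrsf9 UMI sufficed, so did Trbv19 (-0.24, adjusted p = 0.47) and Trbv29 (-0.88, adjusted p = 0.341). Without the replicate block Trbv29 was not called either (adjusted p = 0.183). Trbv17 too lost its call without the block and when 1 Tnfrsf9 UMI sufficed (adjusted p up to 0.359). Trbv3 stood at 0.10 (adjusted p = 0.871) within 3000 to 8000 UMIs and at 0.10 (adjusted p = 0.78) when 1 Tnfrsf9 UMI sufficed. All TRBV segments together stood at 1699 CPM against 2276 CPM, all TRAV segments at 792 against 712 CPM and TRDV segments at 86.0 against 53.7 CPM. The segment UMIs count transcripts of a limited number of cells and are not counts of clones.

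Markers of other cell kinds were measured in the same sums. The 10 B cell markers summed to 261 to 1003 CPM in the Tnfrsf9+ populations and 383 to 474 CPM in the Tnfrsf9-low ones, and the 10 myeloid and dendritic markers to 349 to 952 and 362 to 744 CPM. Row 13 held the highest of both in the Tnfrsf9+ cells, where Cd74 was at 785 CPM, and Ebf1 and Cd22 were at 0 in all Tnfrsf9+ cells. Without the 10 Tnfrsf9+ and 18 Tnfrsf9-low cells that held at least 3 UMIs of such markers, 555 genes were higher and 475 lower. DP thymocyte markers summed to 261 to 437 CPM against 394 to 541 CPM, double negative thymocyte markers to 185 to 503 against 333 to 540 CPM, and NK and stage 3 iNKT markers to 441 to 853 against 727 to 1076 CPM. Regulatory T cell markers summed to 187 to 485 against 210 to 304 CPM. Foxp3, which defines that lineage, was at 5.15 against 8.95 CPM, Gpr83 at 0 in the Tnfrsf9+ cells and Il10 at 0 in both classes. Il2ra, Cd83 and Lrrc32 of the same list were highest in cells with 3 or more Tnfrsf9 UMIs. Over 0, 1, 2, 3 and 4 or more UMIs, Il2ra ran through 5.33, 6.83, 0, 11.4 and 26.1 CPM. Cd83 ran through 3.04, 23.9, 0, 76.0 and 30.0 CPM and Lrrc32 through 0, 5.13, 3.02, 15.2 and 9.14 CPM. Il2ra, Cd83 and Lrrc32 held too few UMIs to be tested. In the Tnfrsf9+ cells 1 cell held 3036 of the 4058 immunoglobulin variable UMIs (74.8%), and the median was 5 per cell in both classes. The part of these other RNAs in the differences above was otherwise not tested.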

How the data were processed

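Sorted thymocytes were measured in 1 pooled droplet library of transcripts and 1 of hashtags. Cell Ranger 6.0.0 was run by the authors against mm10 (reference release not stated in the methods), and the deposited values are raw UMI counts for each barcode and each gene or hashtag. Members and gene lists were chosen with earlier results of these data known.

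UMIs were summed per hashtag row and class (144280 to 603942 UMIs in the Tnfrsf9+ sums, 270001 to 819015 in the others) and tested with edgeR 4.0.16 (TMM, quasi-likelihood F-test, two-sided, filterByExpr, row as block) in R 4.3.3, with Benjamini-Hochberg adjustment over all genes tested. DESeq2 1.42.0 was an alternative. Both classes of a row come from the same pool, hence the block. Deviations of the classes from their means correlated by 0.0545 to 0.0820 within rows. Genes of the gate and Eno3, Nrgn and Xcl1 were not tested. Named genes were list members with the largest change or defining a list, and the 10 largest rises and 10 largest falls among called genes that moved the same way in all rows with at least 50 UMIs, leaving out Gm, ribosomal, mitochondrial and receptor variable genes. Other alternatives changed filters, thresholds, depth (thinning to 2000 UMIs, or 3000 to 8000 UMIs only) and left out each row. No doublet caller was run. Doublets were limited by the hashtag share and, as an alternative, by at most 4000 genes per cell. Intervals are exact at 95% and cover counting error only. The scripts were tested on simulated data.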

Additional observations from a re-analysis of the deposited data

Results flagged for a closer look

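For 5 of 113 values tested, all of them genes, the log2 ratio of Tnfrsf9+ to Tnfrsf9-low cells in 1 population stood far from the other 3 (gap as a share of the whole range, above Dixon's 95% critical value, which chance passes in about 1 of 20 groups, so that 5 of 113 is near what chance gives). Slamf6 had a gap of 0.867, with a ratio of -2.26 in row 17 against -1.07 to -0.88 in the others. Pde2a had a gap of 0.843, with -0.62 in row 15 against -1.99 to -1.78. Cd5 had a gap of 0.858, with -0.06 in row 13 against -0.46 to -0.40. Trbv29 had a gap of 0.863, with -0.79 in row 15 against -2.62 to -2.37. Nfkbia had a gap of 0.893, with 0.29 in row 15 against 0.04 to 0.06.

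In rows 12, 14, 16 and 18, which entered no comparison, the same gate held 81 noncycling cells, of which 1 carried at least 2 Tnfrsf9 UMIs. Hashtag rows 1 to 10, 19 and 20 held 25599 UMIs, against 34861260 on rows 11 to 18.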

How the results depend on the processing

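The numbers of genes called moved by more than 1.5 times under several alternatives. Genes higher and lower were 73 and 30 with DESeq2, 136 and 107 in cells of 3000 to 8000 UMIs, 143 and 122 with cells thinned to 2000 UMIs, and 349 and 310 when 1 Tnfrsf9 UMI sufficed. Leaving out 1 row each gave 238 (without row 13) to 600 (without row 11) higher and 198 (without row 17) to 495 (without row 11) lower genes. Fewer cells or genes entered the depth-matched and leave-one-out fits. Without the replicate block the counts were 442 and 347, and 70 of the 91 called genes named here were still called. The share of Tnfrsf9+ cells was 25.2% with at least 3 UMIs, 49.8% with at least 1, and 30.2 to 32.6% with 1 row left out. Of the 91 called genes, 89 kept their direction in every alternative and 53 were called whichever row was left out. DESeq2 called 30 of the 91, thinning 32 of 56 tested, and the range of 3000 to 8000 UMIs 38 of 74 tested. In that range Pkm turned to -0.014 and Trbv3 to 0.10. Trbv3 also turned to 0.099 when 1 Tnfrsf9 UMI sufficed, and Egr1, not called otherwise, to -0.54 with fewer than 2 cycling UMIs. The causes were not tested. Sums of row 11 rest on 26 Tnfrsf9+ cells, which limits low genes such as S1pr1.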
